A study of Mus musculus with 9 samples.

Results

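Integrins are cell surface receptors made of an alpha and a beta subunit that tie cells to the extracellular matrix. The 10 subunits followed here are known mainly as receptors of collagens, laminins, fibronectin, nephronectin, tenascin or latent TGF-beta, and their expression was compared across the choroid (CH), the retinal pigment epithelium (RPE) and the photoreceptors (PR) of the mouse eye. They are the alpha subunits Itga1, Itga2, Itga3, Itga5, Itga6, Itga8 and Itga9 and the beta subunits Itgb1, Itgb4 and Itgb8. Their probes were found by name: every probe that is not a control and whose gene name in the array files equals one of the 10 symbols. This gave 12 probes of 39429, with 2 probes each for Itga1 and Itgb1, and 10 genes of 31710.

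The samples were run on 9 Agilent arrays of the mouse genome with 2 dyes, 3 for each tissue. All tissue came from female C57BL/6 mice, without any other genetic change or treatment named, that were 6 months old with a range of 2 weeks according to the sample labels (the methods of the study give a slightly lower age and the substrain C57BL/6JOlaHsd, checked to lack the rd8 mutation of Crb1). The cells of each layer were cut from frozen sections by laser dissection, 1 eye for each sample, and the RPE was removed before the CH was collected. Tissue RNA was amplified, coupled to the red dye Cy5 and set against a shared reference pool from mouse RPE and choroid in the green dye Cy3, and no dyes were swapped. Nothing says whether the eyes came from separate animals, so p-values measure the spread between these samples. Values below are log2(Cy5/Cy3), so that 0 means as much signal as the reference. A comparison was called when the fold change (FC) exceeded 2.5 and the Benjamini-Hochberg (B-H) adjusted p-value of limma, fitted over all probes and all 9 arrays, was below 0.01.

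Each array held 43020 spots besides controls, and their median in Cy5 ranged from 991 to 1534 for CH and RPE and from 617 to 963 for PR. On 8 arrays 63.1% to 71.9% of spots were well above background in Cy5. RPE replicate 2 stood apart, with 91.8%. The arrays lay on 3 slides, each scanned on its own day. Slide 1 held PR replicates 1 and 3, slide 2 held replicates 1 and 3 of the CH and of the RPE, and slide 3 held replicate 2 of all tissues. Tissue labels were set against marker genes. Of 12 rod and cone genes, 12 were called higher in the PR than in either other tissue. Of 8 RPE genes, 6 were called higher in RPE than in CH. Some markers had saturated Cy5 spots, which caps their signal. Among the RPE genes these were Ttr on 6 arrays, Rdh5 on 5, Rpe65 on 4, Kcnj13 on 2 and Lrat on 1. Of 9 endothelial genes, 0 were called between RPE and CH, with 0 at an unadjusted p below 0.05, and their mean log2 ratio ran from 0.95 to 1.63 in the CH, from 1.21 to 1.35 in the RPE and from -2.12 to -1.97 in the PR. The CH and RPE arrays overlapped in this mean.

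An integrin works as a pair, and a cell shows on its surface only those pairs of which it makes both subunits. Itgb1 is the common partner: it joins Itga1 and Itga2, which bind collagens, Itga3 and Itga6, which bind laminins, Itga5, the fibronectin receptor, Itga8, which binds nephronectin, and Itga9, which binds tenascin-C. Itgb4 pairs with Itga6 alone and anchors epithelial cells through hemidesmosomes. Itgb8 pairs with Itgav and binds the latent form of TGF-beta. The basal side of the RPE and the endothelium of the choriocapillaris both rest on Bruch's membrane, a sheet of matrix rich in laminins and collagens. Photoreceptors have no basement membrane.

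The probes are 60-base DNA strands, and 5 of the 12 are shown in whole or in part because the results below turn on them. Positions are on mm9, as the array files give them, and the exon or untranslated region that holds each probe was not looked up, since no annotation of that build was used here. The 2 probes of Itgb1 are shown in whole because they read different stretches of the same message. The reported one lies at chr8:131250081-131255976 on the plus strand, so that its 60 bases are split over 5896 bases of the genome. Capitals mark the codons of 2 NPxY motifs (asparagine, proline, any residue, tyrosine), which in the tail of a beta subunit bind talin and kindlin. An NPxY motif in an open frame stood in 0.0913% of all 39429 probes.
Itgb1, reported probe: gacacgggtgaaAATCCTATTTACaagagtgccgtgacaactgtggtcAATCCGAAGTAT
The second probe of Itgb1 lies upstream, at chr8:131246349-131246408. Capitals mark the 3 cysteine codons of its open frame, a residue that is frequent in the stalk of beta subunits. At least 3 cysteine codons in 1 open frame stood in 5.67% of all probes.
Itgb1, second probe: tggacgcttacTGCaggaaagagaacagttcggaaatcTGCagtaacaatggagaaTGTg
Of the remaining 3, shown because they are the members called between RPE and CH, 30 bases each are printed. The probe of Itgb4 lies at chr11:115869666-115869725 on the plus strand. The last 30 of its bases hold AATAAA, in capitals, the letters of the common signal for polyadenylation. These letters stood on the printed strand of 12.6% of all probes.
Itgb4, last 30 bases: tgcacttAATAAAaggttttgctactgctt
The probe of Itga8 lies at chr2:12028462-12028521 and that of Itgb8 at chr12:120401278-120401337, both on the minus strand. The first 30 bases of each follow, with no part marked.
Itga8, first 30 bases: catacattggtattctcgaggagtctatct
Itgb8, first 30 bases: atgtagatcatctgggaaagcactgattac

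Between RPE and CH, the layers on either side of Bruch's membrane, 3 of the 10 integrins were called. Itgb8 was higher in the RPE, and Itga8 and Itgb4 were higher in the CH. Over all probes, 0.185% were called higher in the RPE and 1.55% higher in the CH, against 1 and 2 of the 12 probes here. The members were chosen with earlier results of these data known, so this contrast describes them and is not a test. The median difference of the 12 probes, RPE minus CH, was -0.27 on the log2 scale, against 0.04 over all probes. In these bulk samples, fewer cells of a type and less RNA per cell cannot be told apart.

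Itgb8, whose pair with Itgav binds latent TGF-beta, had log2 ratios of 0.94, 1.12 and 0.77 on the RPE arrays, -0.53, -0.64 and -0.33 on the CH arrays and -2.78, -2.98 and -2.23 on the PR arrays. The 3 RPE arrays lay above all CH arrays, and these above all PR arrays. The RPE exceeded the CH by 1.44 on the log2 scale (SE 0.19, FC 2.72, limma B-H adjusted p-value 0.000799). Only Itgb8 of the 10 genes was called higher in the RPE than in both neighbours, although Itga3 had the same order of means. The paper, from these same arrays, lists Itgb8 among its mouse RPE signature genes and among those also found in human RPE. The FC of Itgb8 against the CH lay close to the threshold here. The difference was 1.76 within slide 3, with 1 array each and no test, and 1.29 within slide 2, where it missed both thresholds (limma B-H adjusted p-value 0.0233). Without RPE replicate 2, the array that stood apart, it was 1.36 (0.0048). The call was lost under 5 other ways to process the signals, with differences between 1.24 and 1.59. The mean log2 ratio of the RPE markers lay in the same direction. It ran from 1.73 to 2.27 in the RPE, from 0.39 to 1.07 in the CH and from -2.87 to -2.75 in the PR. Of the 8 markers, Best1 and Kcnj13 were not called, and the part of the list in the result was not tested.

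Itga8, the receptor of nephronectin in a pair with Itgb1, showed the opposite order of the upper pair of tissues. Its log2 ratios were 1.28, 1.05 and 1.48 on the CH arrays, -0.60, -0.97 and -0.34 on the RPE arrays and -2.51, -2.62 and -2.83 on the PR arrays. No tissue overlapped another. The CH exceeded the RPE 3.75-fold (RPE minus CH -1.91, SE 0.17, limma B-H adjusted p-value 0.000163). The difference was -2.02 within slide 3 and -1.85 within slide 2, and -1.74 without RPE replicate 2.

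Itgb4, the partner of Itga6 in hemidesmosomes, had log2 ratios of 1.44, 1.48 and 0.75 on the CH arrays and -0.75, -0.43 and -0.92 on the RPE arrays. Its PR arrays read -3.73, -3.93 and -4.01. The 3 tissues did not overlap. The CH exceeded the RPE 3.81-fold (RPE minus CH -1.93, SE 0.20, limma B-H adjusted p-value 0.000314). The difference was -1.92 within slide 3, -1.93 within slide 2 and -2.06 without RPE replicate 2. Within slide 2 alone, with 2 arrays against 2, the adjusted p-values of Itga8 and Itgb4 were 0.0211 and 0.0274, and 0 of all probes were called.

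Markers of other cell types differed in the same direction as Itga8 and Itgb4. Of 8 fibroblast genes, 7 were called higher in CH than in RPE (median difference RPE minus CH -1.84), and their mean log2 ratio ran from 0.70 to 1.07 in the CH, from -1.24 to -1.0 in the RPE and from -4.34 to -3.86 in the PR. Every one of the 8 fibroblast genes was well above background on all 9 arrays. Of 9 genes of pericytes and smooth muscle, 2 were called higher in the CH, as were 3 of 7 melanocyte genes, 3 of 7 immune cell genes and 1 of 6 Schwann cell genes. The mean log2 ratio of the pericyte list ran from 0.85 to 1.47 in the CH and from 0.22 to 0.36 in the RPE. That of the melanocyte list ran from 0.62 to 0.81 and from -0.38 to 0.01. That of the immune list ran from 0.25 to 0.93 and from -0.49 to -0.21, and that of the Schwann list from 0.82 to 1.01 and from 0.33 to 0.43. Of 7 genes of Muller glia, 1 was called in each direction, and of 6 genes of skeletal muscle 0 were called, with 0 at an unadjusted p below 0.05. The lists share genes: the Muller gene called higher in the RPE was Rlbp1, also on the RPE list, and Sox10 is on both the melanocyte and the Schwann list. The part of these cell types in the values of Itga8 and Itgb4 was not tested.

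**Figure D1:**
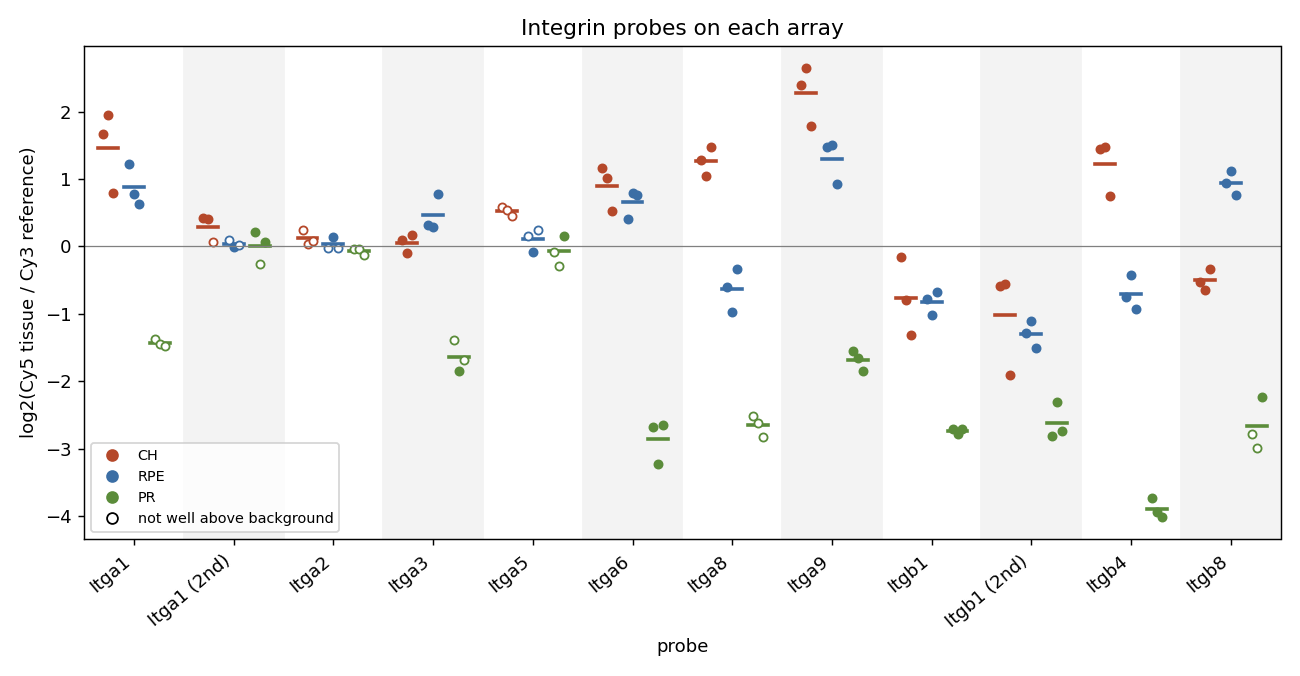
Log2(Cy5/Cy3) of the 12 integrin probes (horizontal axis) on each of the 9 arrays; points are arrays, bars are the means of 3 arrays, and open points are spots not well above background. The RPE arrays of Itgb8, between 0.77 and 1.12, lie above its CH arrays, while Itga8 and Itgb4 show the CH on top, and the PR points are lowest for most probes.

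The other 7 genes were not called between RPE and CH. Itga9, the tenascin-C receptor subunit, came closest: its log2 ratios were 2.39, 2.64 and 1.79 in the CH and 1.48, 1.5 and 0.93 in the RPE. The arrays did not overlap, and the difference of -0.97 (SE 0.22, limma B-H adjusted p-value 0.0126) missed both thresholds. Itga3, a laminin receptor subunit, lay at 0.32, 0.29 and 0.78 in the RPE and at 0.09, -0.09 and 0.17 in the CH. The tissues did not overlap, yet the difference of 0.41 (SE 0.16, limma B-H adjusted p-value 0.108) did not pass. Itga6, the laminin receptor subunit that can join either Itgb1 or Itgb4, had overlapping arrays. Its log2 ratios were 1.17, 1.01 and 0.53 in the CH and 0.40, 0.79 and 0.77 in the RPE, a difference of -0.25 with a 95% interval from -0.72 to 0.21. Itga6 and Itgb4, which form 1 receptor, thus stood differently: the CH and RPE overlapped for the alpha subunit and were apart for the beta subunit. Whether these 2 differences differ from each other was not tested.

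Itgb1, the shared beta subunit, also overlapped between CH and RPE. The reported probe, with the NPxY codons, read -0.16, -0.80 and -1.31 in the CH and -0.78, -1.02 and -0.68 in the RPE. The difference was -0.07 (95% interval -0.61 to 0.46, limma B-H adjusted p-value 0.876), and its sign turned to 0.23 without CH replicate 1 and to 0.026 without RPE replicate 2. The second probe, in the cysteine-rich stretch, read -0.58, -0.56 and -1.90 in the CH and -1.28, -1.10 and -1.51 in the RPE, and its difference of -0.29 had an interval from -1.01 to 0.44. On both probes CH replicate 3 was the lowest of the 6 CH and RPE arrays. These intervals do not reach the threshold of 2.5-fold in either direction.

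Itga1, a collagen receptor subunit, had a reported probe at chr13:115756765-115758419 that read 1.66, 1.95 and 0.79 in the CH and 1.22, 0.78 and 0.63 in the RPE. The difference of -0.59 (SE 0.26, limma B-H adjusted p-value 0.152) did not pass. Its second probe, at chr13:115821387-115825525, stayed between -0.26 and 0.42 on all 9 arrays, and it was well above background on 5 of them. The probes of Itga1 disagree, then, in all comparisons with the PR below. Itga2, the other collagen receptor subunit, was well above background on 1 array of 9, and its values lay between -0.12 and 0.25. Itga5, the fibronectin receptor subunit, was well above background on 0 of 3 CH arrays and on 1 array each of the RPE and the PR. For both genes the RPE array was replicate 2, which stood apart in its share of spots above background. For Itga2 and Itga5 the differences between tissues are therefore given with no fold.

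**Figure D2:**
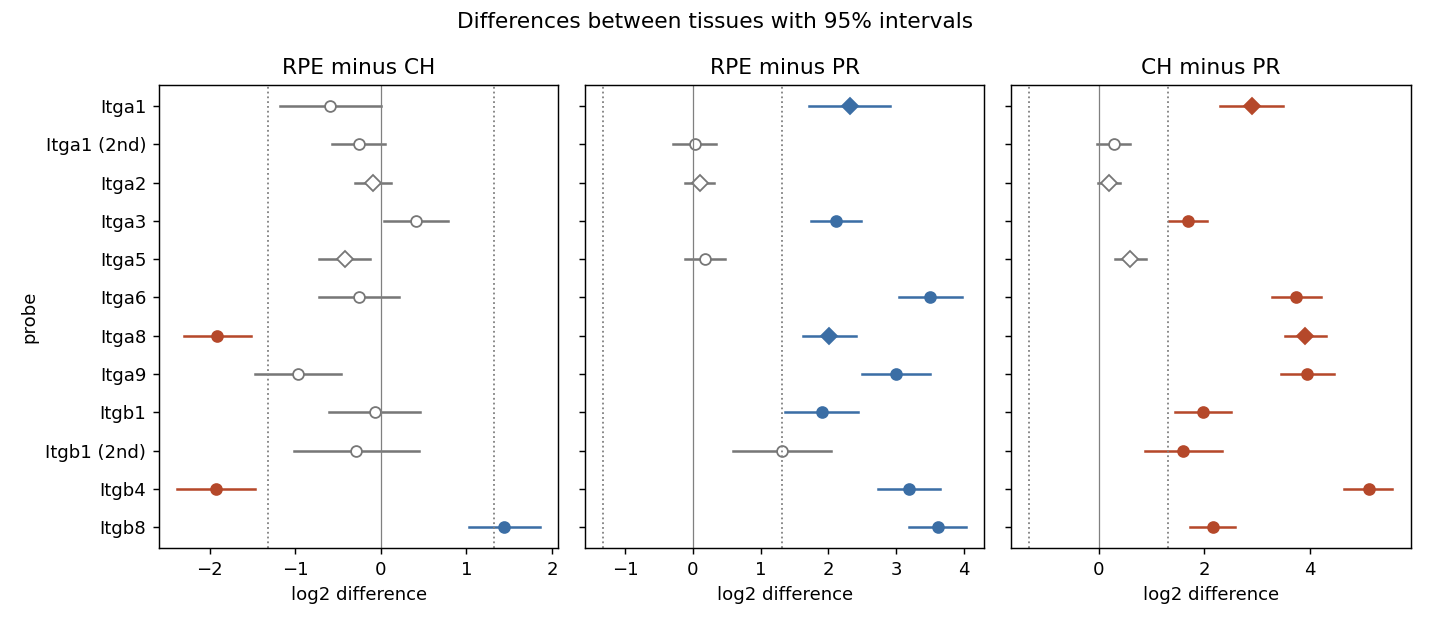
Log2 differences between tissues (horizontal axes, 1 panel for each comparison) of the 12 integrin probes with 95% intervals; filled symbols were called, diamonds mark comparisons in which a tissue was not well above background on any array, and dotted lines mark a fold change of 2.5. Itgb8 is the only filled symbol to the right in RPE minus CH, at 1.44, and all symbols lie right of 0 in both comparisons with the PR.

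Against the PR, most of these integrins were higher in both of the layers next to Bruch's membrane. In RPE minus PR, 8 of the 12 probes, from 8 genes, were called higher in the RPE and 0 higher in the PR. Over all probes, 10.2% were called higher in the RPE and 5.22% higher in the PR. In CH minus PR, 9 of the 12 probes, again from 8 genes, were called higher in the CH and 0 higher in the PR, where the background was 12.0% and 6.4%. For both counts of 0, no probe lay lower in the RPE or CH than in the PR at all, so that none did at an unadjusted p below 0.05. The median difference was 2.06 for RPE minus PR and 2.07 for CH minus PR, against -0.01 and -0.06 over all probes, and 2.00 and 2.06 with the probes dim in the PR at their lower bounds. All RPE arrays lay above all PR arrays for 10 of the 12 probes, against 28.7% of all probes, and all CH arrays above all PR arrays for 11, against 28.0%. Both counts include Itga2, which was dim in the PR and the CH. These comparisons share the PR arrays and are not independent of each other. As the members were chosen with earlier results of these data known, the contrast with all probes is a description and not a test.

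Itgb4 showed the widest distance of any member: the CH exceeded the PR by 5.12 on the log2 scale (SE 0.20, FC 34.7, limma B-H adjusted p-value 2.64e-08). The RPE exceeded the PR by 3.19 (9.12-fold). Its partner Itga6 read -2.68, -3.22 and -2.65 on the PR arrays, 13.5-fold below the CH and 11.3-fold below the RPE. Both subunits of this laminin receptor were well above background on all 9 arrays, so the PR values were measured and not bounds. Itga9 read -1.55, -1.66 and -1.85 on the PR arrays, 15.6-fold below the CH and 7.94-fold below the RPE.

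Itgb8 was 12.2-fold higher in RPE than in PR (3.61, SE 0.19, limma B-H adjusted p-value 1.97e-07) and 4.48-fold higher in CH than in PR (2.16, limma B-H adjusted p-value 5.07e-06). In the PR, 1 of 3 arrays read its probe well above background. Itga3 read -1.38, -1.85 and -1.69 in the PR, also with 1 of 3 arrays well above background, and was 4.31-fold higher in the RPE and 3.24-fold higher in the CH. Itga8 and the reported probe of Itga1 were not well above background on any PR array, which leaves lower bounds. These are on the scale of the Cy5 signal alone, against the higher of the probe's own signal and the dimmest probe above background on those arrays, while the p-values are those of the fit to the ratios. Itga8 was at least 15.0-fold higher in the CH (limma B-H adjusted p-value 4.97e-08) and at least 3.68-fold higher in the RPE (6.01e-06). Itga1 was at least 7.17-fold higher in the CH (7.69e-06) and at least 5.05-fold higher in the RPE (4.76e-05). On the scale of the ratios the RPE exceeded the PR 4.95-fold for Itga1, so that its bound holds for the Cy5 scale only. The second probe of Itga1 differed by 0.29 and 0.03 in the same comparisons and passed neither.

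Itgb1, the shared beta subunit, was also called against the PR. Its reported probe read -2.70, -2.78 and -2.71 on the PR arrays, below all other arrays, and was 3.92-fold higher in the CH (limma B-H adjusted p-value 5.86e-05) and 3.73-fold higher in the RPE (9.04e-05). The second probe read -2.81, -2.31 and -2.73 in the PR. It was called for the CH (1.60, SE 0.32, limma B-H adjusted p-value 0.00188), while for the RPE its FC of 2.49 fell just short of the threshold (1.32, adjusted p-value 0.00665). Scale normalization between arrays ended the calls of both Itgb1 probes against the PR, that of Itga3 in the CH and that of Itga8 in the RPE. Itga5 exceeded the PR in the CH by 0.60 (SE 0.13, limma B-H adjusted p-value 0.003), under the threshold on FC, with 0 CH arrays well above background, and Itga2 differed by 0.19 (adjusted p-value 0.117).

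PR replicates 1 and 3 shared slide 1 with no other tissue, so that only slide 3 allows a comparison with the PR within a slide, with 1 array each and no test. There, the 8 probes called for RPE minus PR differed by 1.65 to 4.10, and the 9 called for CH minus PR by 1.75 to 5.42. Endothelial genes moved the same way, with 8 of 9 called higher in the RPE and 8 of 9 in the CH than in the PR, and so did 7 of 8 RPE genes in both comparisons, and 6 and 7 of the 8 fibroblast genes. Their part in the integrin values was not tested.

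The tissue means of Itga3 and Itgb8 ran RPE, CH, PR, and those of the other probes CH, RPE, PR. No order can be read for Itga2, Itga5 and the second probe of Itga1, which were dim on several arrays of every tissue or differed by less than their spread. Nor can an order be read between CH and RPE for Itgb1, whose difference turned sign on its reported probe. The same holds for Itga6 and the reported probe of Itga1, whose CH and RPE arrays overlapped. The PR stood apart from both other tissues for 8 genes. CH and RPE differed beyond the call only for Itga8, Itgb4 and Itgb8. The log2 Cy3 signal of the reference had an SD between 0.06 and 0.28 over the 9 arrays for the 12 probes.

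The remaining integrin subunits, 16 genes with leukocyte, collagen and vitronectin receptors among them, were all on the array. Between RPE and CH, 1 of 16 was called higher in the RPE and 3 higher in the CH, against 0.185% and 1.55% of all probes. The median difference of the 16 was -0.16. The 1 gene was Itgav, the alpha partner of Itgb8. On the brighter of its 2 probes, the only one used, its mean log2 ratio was 0.93 in the RPE, -0.61 in the CH and -2.90 in the PR. The means of Itgb8 were 0.94, -0.50 and -2.66. The RPE exceeded the CH by 1.55 for Itgav (SE 0.16, limma B-H adjusted p-value 0.000259). Among its other beta partners, Itgb6 differed by 0.82 (adjusted p-value 0.00946, under the threshold on FC), Itgb3 by -0.19 (0.33) and Itgb5 by -0.32 (0.0971). The 3 genes higher in the CH were Itga11 (-1.78, limma B-H adjusted p-value 0.000333) and Itga10 (-1.34, 0.000474), both collagen receptor subunits that pair with Itgb1, and Itgax (-1.44, 0.000229), a leukocyte subunit. Itga10 lost its call without CH replicate 1 (-1.26), CH replicate 2 (-1.30) or RPE replicate 1 (-1.20). The same happened with the processed signals and loess (-1.31) and with the deposited log ratio (-1.3). The call of Itgav was also lost with the authors' series table, where its difference was 1.28, and those of all 4 genes within slide 2 alone.

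**Figure D3:**
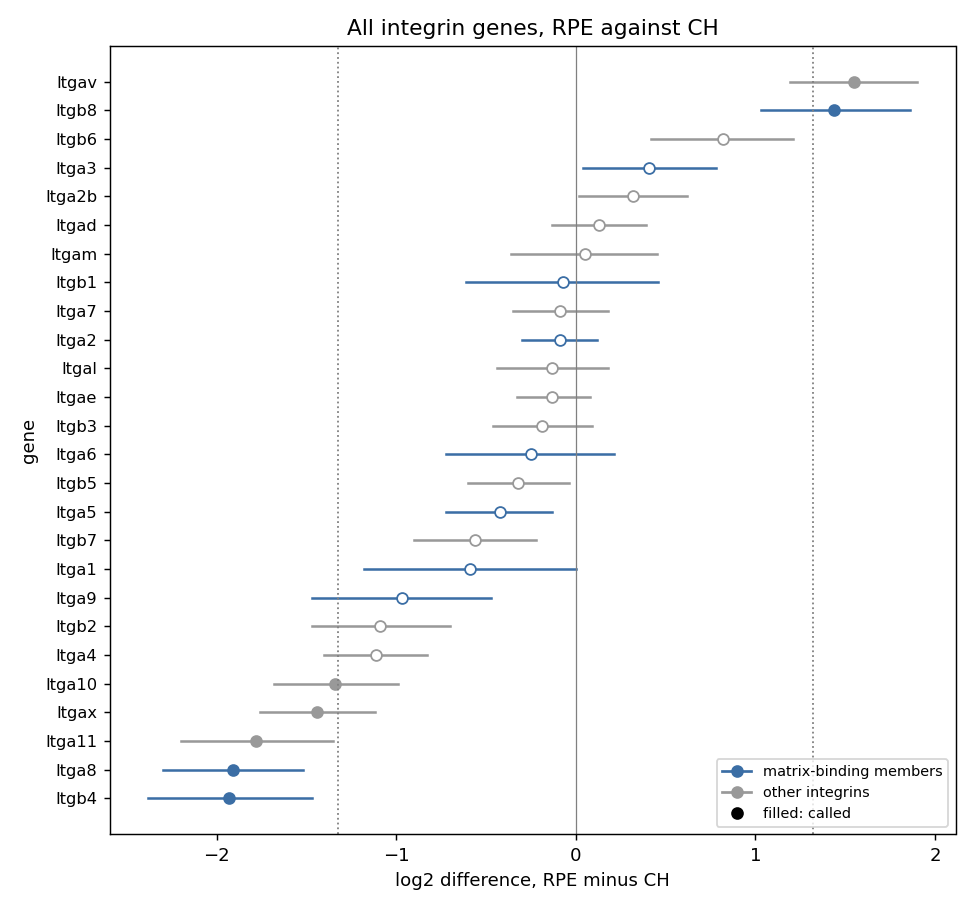
Log2 difference RPE minus CH (horizontal axis) with 95% intervals for 26 integrin genes, the 10 members in blue and the 16 others in grey; filled symbols were called and dotted lines mark a fold change of 2.5. Itgav at 1.55 and Itgb8 at 1.44 stand at the top, and Itgb4 at -1.93 and Itga8 at -1.91 at the bottom.

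Against the PR, 9 of these 16 genes were called higher in the RPE and 11 higher in the CH, and 0 were called higher in the PR. Over all probes, 10.2% were called higher in the RPE and 12.0% higher in the CH. Those higher in the PR were 5.22% and 6.4%. The medians of the 16 genes were 1.66 and 2.33. Of the 16, 4 were not well above background on any PR array and 3 not on any CH array. Itga4, a receptor subunit for fibronectin and vascular adhesion molecules, exceeded the PR most in the CH (4.72, limma B-H adjusted p-value 3.90e-09), followed by Itga7, a laminin receptor subunit (3.21, 1.63e-08), Itgax (3.06, 7.03e-08) and Itgb7 (2.91, 1.53e-07). Itgav exceeded the PR by 3.83 in the RPE (4.67e-08).

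The matrix ligands of these receptors formed a list of 32 genes. Between RPE and CH, 0 were called higher in the RPE and 5 higher in the CH, against 0.185% and 1.55% of all probes. At an unadjusted p below 0.05 in either direction there were 20 of 32, with no count over all probes to set beside it. The median difference was -0.35. The 5 were the collagen chains Col1a1 (RPE minus CH -3.62, limma B-H adjusted p-value 2.99e-06), Col1a2 (-2.94, 0.0001) and Col3a1 (-1.75, 0.000509), fibronectin, Fn1 (-2.53, 0.000135), and Tgfb3 (-2.01, 0.000181). The 3 collagen genes are also on the fibroblast list, and Col3a1, the fifth by size, was named after its values were seen. So were the genes that missed only the FC threshold, with an FC above 2. Toward the RPE these were Col4a3 (1.31, FC 2.49, limma B-H adjusted p-value 0.000129), Nid2 (1.26, 0.000863) and Col4a4 (1.13, 0.00113, brightest of 3 probes). Toward the CH it was Lama4 (-1.04, 0.00144). The paper lists Col4a4, as it does Itgb8, among its mouse RPE signature genes, so that Col4a4 passed these thresholds there and missed the one on FC here. Of the 32 genes, 19 were called higher in the RPE and 20 higher in CH than in PR, against 10.2% and 12.0% of all probes. Vtn, which encodes vitronectin, a ligand of Itgav pairs, was the 1 gene called the other way in both comparisons: the PR exceeded the CH by 3.87 (CH minus PR -3.87, limma B-H adjusted p-value 1.12e-07) and the RPE by 3.46 (RPE minus PR -3.46, 3.08e-07).

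The cytoplasmic side of the receptor was followed with 27 genes of adaptors and partners. Between RPE and CH, 0 of 27 were called in either direction, against 0.185% of all probes higher in the RPE and 1.55% higher in the CH. At an unadjusted p below 0.05 there were 16, again without a count over all probes, so no excess is read from it. The median difference was -0.11. Toward the CH, Tns1 (-1.32, FC 2.49, limma B-H adjusted p-value 0.00642) and Plec (-1.06, FC 2.09, 0.000581) missed only the FC threshold. Both were picked here after their values were seen. Against the PR, 11 were called higher in the RPE and 11 higher in the CH, against 10.2% and 12.0% of all probes. The medians of the 27 were 0.78 and 0.82. Tns1, a tensin that binds the NPxY tail (CH minus PR 5.89, limma B-H adjusted p-value 5.45e-08), Lims2, a partner of the integrin-linked kinase (4.78, 2.89e-09), Cd151, a tetraspanin that sits beside laminin receptors (3.57, 1.44e-08), and Zyx, a protein of focal adhesions (3.56, 4.76e-09), differed most. Of the talins, which link the NPxY motif to actin, Tln2 was called higher in PR than in CH (CH minus PR -1.76, limma B-H adjusted p-value 1.51e-06) and than in the RPE (-1.72, 2.26e-06). Tln1, named after its values were seen, was called the other way in both comparisons (CH minus PR 2.84, 3.29e-08, and RPE minus PR 2.10, 3.13e-07).

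**Figure D4:**
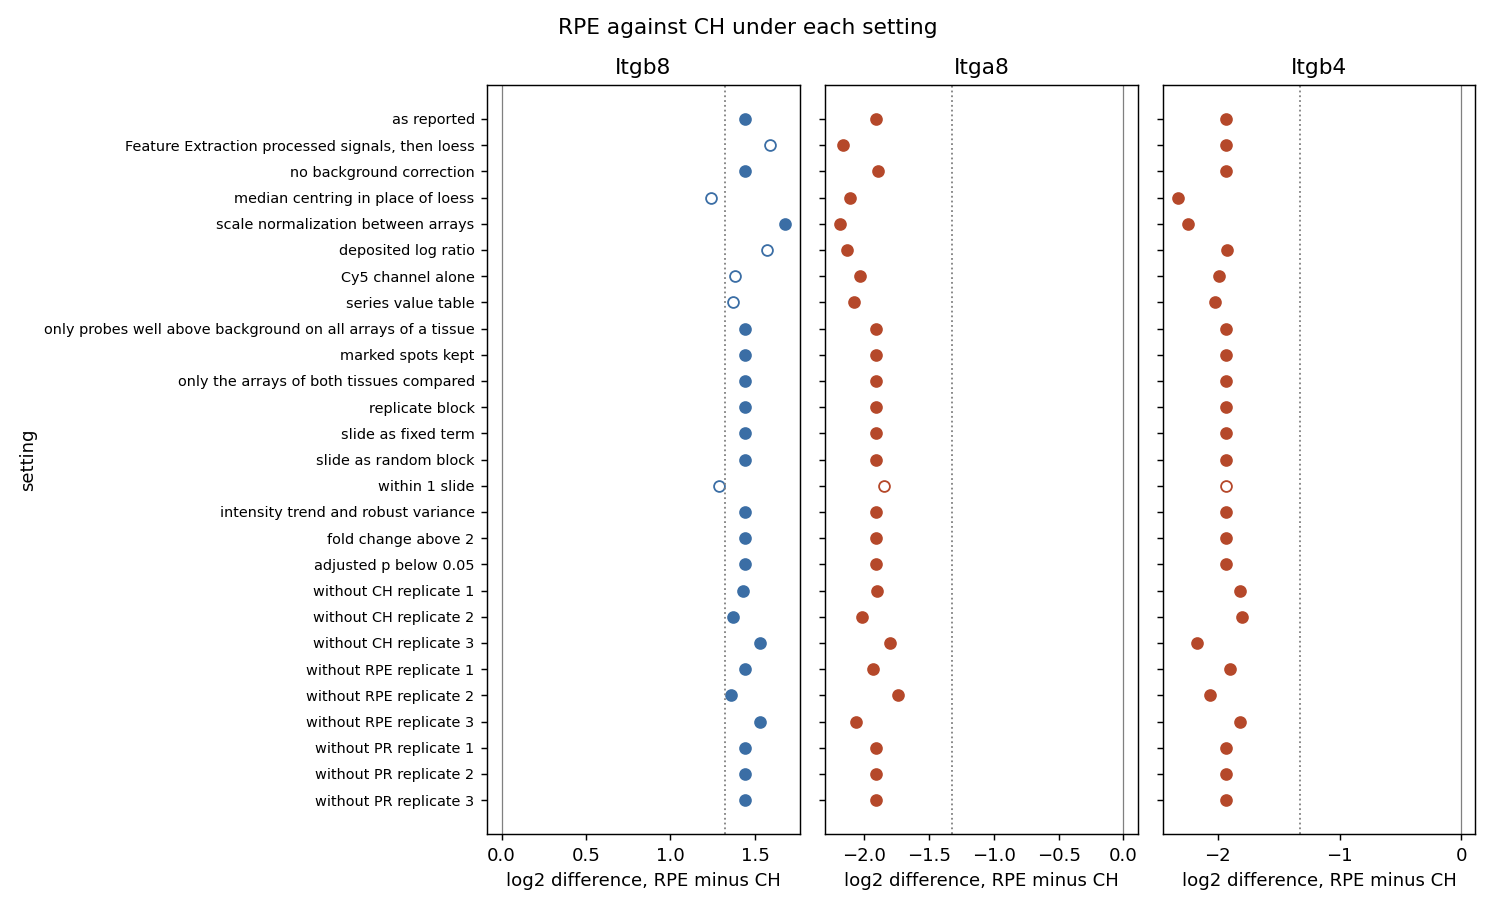
Log2 difference RPE minus CH (horizontal axes) of Itgb8, Itga8 and Itgb4 as reported and under each other setting (vertical axis); filled symbols were called, and dotted lines mark a fold change of 2.5. Itgb8 stays between 1.24 and 1.68 and is open in 6 settings, while Itga8 and Itgb4 are open only within 1 slide.

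The genes whose pattern over the 9 arrays was most like that of a member were sought by the root mean square difference of log2 ratios, after each of 26590 probes was centred on its own mean. For Itgb8, whose own root mean square around its mean was 1.5, they were Cltrn (0.21), also known as Tmem27, Loxl4 (0.22), a lysyl oxidase that crosslinks collagen, and Plce1 (0.23), a phospholipase. For Itga8 (1.61) they were Cd86 (0.20) and Havcr2 (0.21), both surface proteins of immune cells, and Prrx1 (0.21), a transcription factor of mesenchyme. For Itgb1 (0.96) they were Ptgfrn (0.12), a membrane protein associated with tetraspanins, Camk1 (0.13), a calcium-dependent kinase, and Tagln2 (0.13), which binds actin.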

How the data were processed

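Expression was measured in 3 laser-dissected samples each of CH, RPE and PR. The authors scanned the arrays, extracted them with Agilent Feature Extraction 9.5.3.1 and deposited mean signals and local backgrounds as linear intensity values, beside processed intensities, corrected by the software for background and dye. They also deposited the log10 of the ratio of processed signals, red over green. A series table deposited by the authors gives Cy5 as log2 values, with medians per array from 9.38 to 9.55 and with a normalization not given in the sources used here. Its correlation with log2 Cy5 was at least 0.9845. These served as alternatives, while mean signals and backgrounds were the starting point. 

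Background was corrected with normexp (offset 50), ratios were normalized by loess, spots with an outlier mark (228 to 586 per array) were left out, and spots of a probe were averaged. Tissue means were fitted to all 9 arrays with limma 3.58.1 in R 4.3.3, with B-H adjustment over 39429 probes. The thresholds and the model follow the methods of the study, whose text does not give the background correction. Tables and plots used Python 3.11.15, pandas 2.3.3 and matplotlib 3.10.9. The fit was tested on simulated data. A gene's reported probe is its brightest in Cy5, and for the listed genes outside the members only that probe was used. Genes outside the 10 members are named by their largest differences among those called, at most 4 in a direction, and the 3 most alike for likeness. Names came from a RefSeq table (GRCm38.p6), with 26055 probes found through their accession, 3196 through their symbol and 928 through a former symbol. The members and lists were chosen with earlier results of these data known. The number of arrays limits the precision. The 18 alternatives covered background, normalization, reference channel, thresholds, marked and dim spots, arrays fitted, replicate number, slide, variance model, the series table and each array left out.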

Additional observations from a re-analysis of the deposited data

How the results depend on the processing

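Of the differences of the 12 member probes and of the listed genes named above, without the counts of calls, 514 of 522 values with 1 array left out and 898 of 939 under the other alternatives kept their direction and their side of the thresholds. Some settings leave the difference itself unchanged, such as other thresholds, another variance model or an array left out of the third tissue. There the direction could not turn, so these tallies overstate how far it was put to a test. The number of member probes called higher in RPE than in CH, 1 as reported, was 0 with the processed signals and loess, with median centring, with the deposited log ratio, with Cy5 alone, with the series table and within 1 slide, where Itgb8 missed a threshold. The number called higher in the CH, 2 as reported, was 0 within 1 slide. There, with 4 arrays, 0 of all probes passed, and 5 of the 12 member probes had an unadjusted p below 0.05. The share of all probes below that p was not counted. Of the other integrins, 0 in place of 1 were called higher in the RPE with the series table and within 1 slide, and in place of 3 called higher in the CH there were 5 with median centring, 5 with an FC above 2 and 0 within 1 slide. Of the ligands, in place of 0 called higher in RPE than in CH there were 3 with scale normalization, 1 with Cy5 alone, 1 with the series table and 3 with an FC above 2, and 0 to 2 with 1 array left out. The 2 arose without CH replicate 3, and 1 each without RPE replicate 2 and RPE replicate 3. The 5 called higher in the CH were 0 within 1 slide. Of the adaptors, in place of 0 called higher in the CH there were 2 with median centring, 1 with scale normalization and 2 with an FC above 2, and 0 to 1 with 1 array left out, the 1 without CH replicate 3. The second probe of Itga1, RPE minus PR, was -0.30 with Cy5 alone, -0.35 with the series table and between -0.11 and 0.13 with 1 array left out. Itga2, RPE minus CH, was 0.023 with the processed signals, 0.19 with median centring, 0.12 with the deposited log ratio, 0.089 with Cy5 alone and 0.16 with the series table. The reported probe of Itgb1, RPE minus CH, was 0.0049 within 1 slide and between -0.35 and 0.23 with 1 array left out. The cause was not tested.

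Over all probes, 73 were called higher in the RPE and 611 higher in the CH as reported. These counts were 31 and 471 with Cy5 alone, 24 and 381 with the series table, 13 and 1169 with median centring, 229 and 989 with scale normalization and 410 and 1296 with an FC above 2. They were 21 and 476 without CH replicate 2, 175 and 835 without CH replicate 3 and 45 and 597 without RPE replicate 2. With the deposited log ratio, 4964 probes were higher in the CH and 4367 in the PR, against 4731 and 2523 as reported, and 4240 in the RPE and 3573 in the PR, against 4041 and 2057. With an FC above 2, the PR counts were 4164 and 3468. The median of all probes, CH minus PR, was -0.056 as reported, -0.125 with the deposited log ratio, -0.113 with median centring and -0.115 with the series table. Scale normalization ended the calls of Itga3 (CH minus PR 1.29), Itga8 (RPE minus PR 1.23) and Itgb1 (1.18 and 1.06).

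The replicate numbers of the labels do not name a shared animal, and same-numbered arrays of different tissues did not all deviate together (correlation across probes between -0.08 and 0.29). For number 2 the correlations were 0.16 (CH and RPE), 0.29 (CH and PR) and 0.23 (RPE and PR). These arrays also shared slide 3 and its scan day, so number and slide cannot be told apart there. With the replicate number as a block the member counts were 1, 2, 8 and 9, as without it, and not every array correlated best with its own number.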
